A study of Danio rerio with 170 samples.

Results

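Matrix metalloproteinases (MMPs) and their tissue inhibitors were followed as a group of 9 named genes in whole zebrafish embryos: the secreted enzymes mmp2, mmp9, mmp11a and mmp13a, the membrane-type enzymes mmp14a, mmp14b and mmp15b, and the inhibitors timp2a and timp2b. The genes were picked by name and matched to the table by NCBI GeneID. Earlier results of these data were known when these genes and the gene lists used below were chosen. Of the 9, 8 had a row among the 21854 genes of the table, and mmp11a was not analysed here. Each measured gene was compared between each of 33 chemical treatments and the DMSO group of the same study.

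The data join RNA sequencing from 5 studies of wild-type Tropical 5D embryos, with exposure starting at 6 h post fertilization (hpf) and collection at 48 hpf. For the newly sequenced aromatic hydrocarbons the study describes exposure until collection. Its TCDD embryos for PCR, said to be handled similarly to the sequenced ones, were exposed for 1 h, rinsed and raised to 48 hpf. After repeat entries of the same library were averaged there were 144 libraries, in groups of 2 to 4. The 10 flame retardant chemicals (FRCs) were BDE-47, TCEP and TCPP at 85 µM, IPP (triisopropylated phenyl phosphate) at 19.8 µM, TBBPA (tetrabromobisphenol A) and TBBPA-DBPE at 4 µM, TBPH at 72 µM, TDBPP at 3 µM, TPP at 8 µM and TiBP at 158 µM, against 0.64% DMSO. The 10 AHR2 Activators, the class that the study names after the aryl hydrocarbon receptor 2, were BbF at 50 µM, BjF at 14.9 µM, BkF at 1.9 µM, DBahP at 10 µM, DBaiP at 5 µM, Retene at 12.2 µM, 7,12-B[a]AQ at 10 µM, B[a]P at 1 and 10 µM, and TCDD at 1 ng/mL. The other 13 polycyclic aromatic hydrocarbons were DBalP and benzanthrone (BEZO) at 10 µM, 9,10-PQ at 1.2 µM, 3-NF at 1.9 µM, 4h-CPdefP at 16.2 µM, and 1,5-DMN, 2-MN, 9-MA, Acenaphthene, Anthracene, Carbazole, Fluoranthene and Phenanthrene at 50 µM. Their controls, and those of the AHR2 Activators other than TCDD, received 1% DMSO and TCDD controls 0.1% DMSO. The AHR2 Activators BbF, BjF, BkF, DBahP, DBaiP, Retene and 3 other aromatic hydrocarbons shared the control group called DMSO_A, and 7 other aromatic hydrocarbons shared DMSO_B. For the newly sequenced aromatic hydrocarbons the study describes 20 embryos per sample. The labels do not say that replicates came from separate clutches, so the p-values measure the spread between these samples.

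MMPs are zinc-dependent endopeptidases that cut collagens and other components of the extracellular matrix. Most are made as inactive proenzymes and are blocked by tissue inhibitors of metalloproteinases (TIMPs), which bind the active site. In mammals, MT1-MMP, encoded by MMP14, and TIMP2 together form the cell-surface complex that activates pro-MMP2, so that TIMP2 is both an inhibitor and a cofactor. In zebrafish larvae mmp9 and mmp13a are well known as genes of wounded and regenerating fin folds, and mmp9 is also made by myeloid cells.

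All values below are normalized counts (reads divided by the size factor of the library), fold changes are differences of mean log2(normalized count + 1) with their SE from limma, and a call is a limma p-value under 0.05 after Benjamini-Hochberg adjustment over all genes of a treatment. Reads per library ran between 6795594 and 28566824. Muscle, neuron, lens, blood, heart and liver markers were above 0 in all 144 libraries. These 8 markers were themselves called lower in 29 and higher in 5 of 264 comparisons, among them 4 lower in TDBPP, 3 in IPP and 2 in TBBPA, and 4 higher and 2 lower in DBalP, and their part in the results was not tested. In controls the members covered a wide range of levels. The gelatinase gene mmp2 had group means of 1896 to 3995 over the 6 DMSO groups, mmp14a 765 to 1006, mmp14b 320 to 951, timp2a 185 to 706, mmp15b 91.6 to 389, timp2b 134 to 175, mmp9 67.7 to 106, and mmp13a 26.2 to 51.1. These are counts per gene, not per length, so the order of the genes is not an order of transcript numbers.

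Over 264 gene-by-treatment comparisons 27 were called higher and 2 lower. The share of all genes called over the same 33 treatments was 2.46% higher and 2.22% lower. The calls came from 11 treatments, and 22 treatments had no call. By class, 16 of 80 FRC comparisons were higher and 2 lower (all genes 5.25% higher and 4.22% lower), 3 of 80 AHR2 Activator comparisons were higher (0.775%), and 8 of 104 comparisons of other aromatic hydrocarbons were higher (1.61%). TBBPA, TDBPP, IPP and DBalP held most of them. In TBBPA 3 members rose and 2 fell (all genes 3.53% and 4.65%), in TDBPP 5 rose (13.7%), in IPP 4 rose (8.51%), and in DBalP 5 rose (13.7%).

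**Figure D1:**
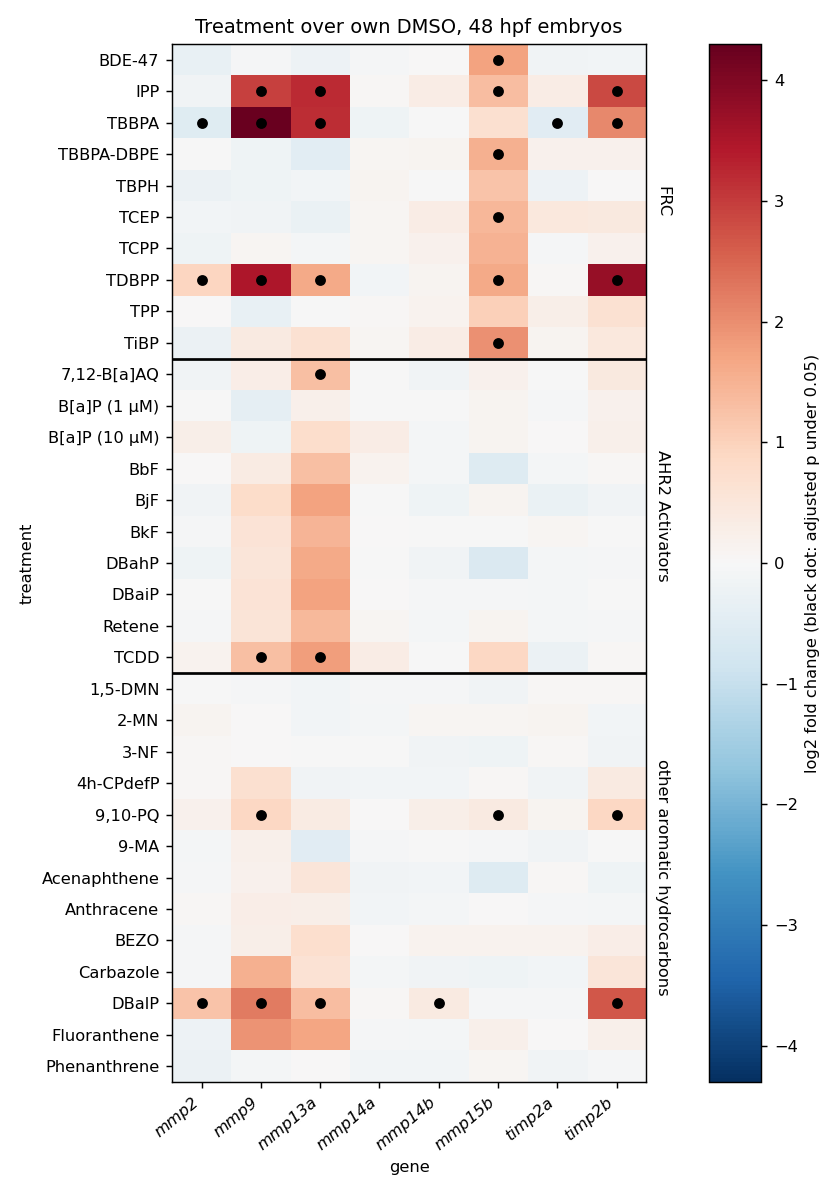
Log2 fold change over the DMSO group of the same study for 8 genes (columns) in 33 treatments (rows, by class); red is higher and blue lower than DMSO, and a black dot marks an adjusted p under 0.05. mmp9 and timp2b are dark red in TBBPA, TDBPP, IPP and DBalP (mmp9 2.23 to 4.24), mmp13a is red down the AHR2 Activator block, and mmp15b is red in all 10 FRC rows.

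The largest fold change among the members was that of mmp9, the gelatinase B gene. TBBPA libraries had 2589, 720, 2803 and 1974 normalized counts, against 68.9, 147, 101 and 77.1 in the DMSO libraries of the FRC study. TDBPP libraries had 1039, 1743, 1109 and 646, and IPP libraries 965, 296, 340 and 2781. None of these 12 libraries overlapped the controls. Of all genes, 4.46% in TBBPA, 17.3% in TDBPP and 11.3% in IPP had every library above every control. The log2 fold changes were 4.24 ± 0.42 for TBBPA (18.8-fold, adjusted p = 1.01e-08), 3.49 ± 0.42 for TDBPP (11.2-fold, adjusted p = 7.01e-08) and 2.92 ± 0.42 for IPP (7.59-fold, adjusted p = 3.85e-06; SE, n = 4 each, limma). IPP replicate 4 was far above the other IPP libraries, and without replicate 4 of the treatments the IPP log2 fold change was 2.28 (adjusted p = 0.000247). In the other 7 FRC treatments mmp9 was not called.

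Among aromatic hydrocarbons, mmp9 was higher in DBalP (dibenzo[a,l]pyrene), in a separate study with its own controls. DBalP libraries had 609, 512 and 352 normalized counts, against 90.6, 76.0 and 151 in DMSO, a log2 fold change of 2.23 ± 0.24 (4.69-fold, limma adjusted p = 1.21e-05). TCDD libraries had 138, 210, 171 and 156, against 71.7, 58.3, 81.0 and 59.6 in DMSO, with no overlap. Of all genes in TCDD, 4.18% had every library above every control and 0.741% were called higher. The log2 fold change of mmp9 was 1.30 ± 0.17 (limma adjusted p = 0.0035). The orthoquinone 9,10-PQ gave 168, 123 and 145, against 104, 62.5 and 69.4 in DMSO. That is 0.90 ± 0.17 on the log2 scale (limma adjusted p = 0.0034), with 3 of 8 members called higher in 9,10-PQ against 2.84% of all genes. The 9,10-PQ call was lost without replicate 1 of the treatments (adjusted p = 0.0623), with the replicate number as a block (0.0553) and with 1 fit over all libraries (0.669). Sequencing lanes differed between treatment and control in both of these small studies. DBalP ran in lane 4 and its DMSO libraries in lane 3, so lane and DBalP cannot be told apart in this comparison. B[a]P at 1 µM, of the same study, also ran in lane 4, and its mmp9 values were 84.9, 75.5 and 72.1. 9,10-PQ ran in lanes 2 and 3 and its DMSO libraries in lane 1.

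In Fluoranthene and Carbazole mmp9 was high in 2 of 4 libraries each and was not called. Fluoranthene libraries had 701, 132, 82.2 and 842 normalized counts, against 68.3, 72.6 and 80.6 in DMSO_A (log2 difference 1.93 ± 0.53, limma adjusted p = 0.12). Carbazole libraries had 1512, 286, 103 and 83.4, against 98.6, 81.1, 92.9 and 73.2 in DMSO_B (1.52 ± 0.49, limma adjusted p = 0.13). Carbazole was called without replicate 4 of the treatments (2.04, adjusted p = 0.00777) and Fluoranthene without replicate 3 (2.52, adjusted p = 0.0379), and both were called with DMSO_A and DMSO_B pooled (adjusted p = 0.0228 and 0.0392). In each of these groups the 4 libraries spanned a wider range than the whole set of DMSO libraries.

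mmp13a, a collagenase gene, rose in the same 4 treatments and also in 2 AHR2 Activators. It had 237, 88.9, 115 and 1829 normalized counts in IPP, 781, 149, 156 and 225 in TBBPA, and 103, 130, 83.2 and 49.8 in TDBPP, against 23.0, 28.7, 38.7 and 22.0 in DMSO. Every exposed library was above every control, to be read beside the shares of all genes given for mmp9. However, 1 IPP and 1 TBBPA library stood far above the rest of their groups. The log2 fold changes were 3.19 ± 0.54 in IPP (limma adjusted p = 5.44e-05), 3.16 ± 0.54 in TBBPA (adjusted p = 0.000123) and 1.62 ± 0.54 in TDBPP (adjusted p = 0.0242). Without replicate 4 of the treatments the IPP value was 2.26 (adjusted p = 0.00169). The TDBPP call was lost in 5 of the 8 fits that left out a replicate, where the highest adjusted p was 0.0784. In DBalP mmp13a had 72.0, 110 and 60.8, against 45.5, 21.1 and 30.3 in DMSO (1.32 ± 0.29, limma adjusted p = 0.00368, and 0.0577 without replicate 2 of the treatments).

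**Figure D2:**
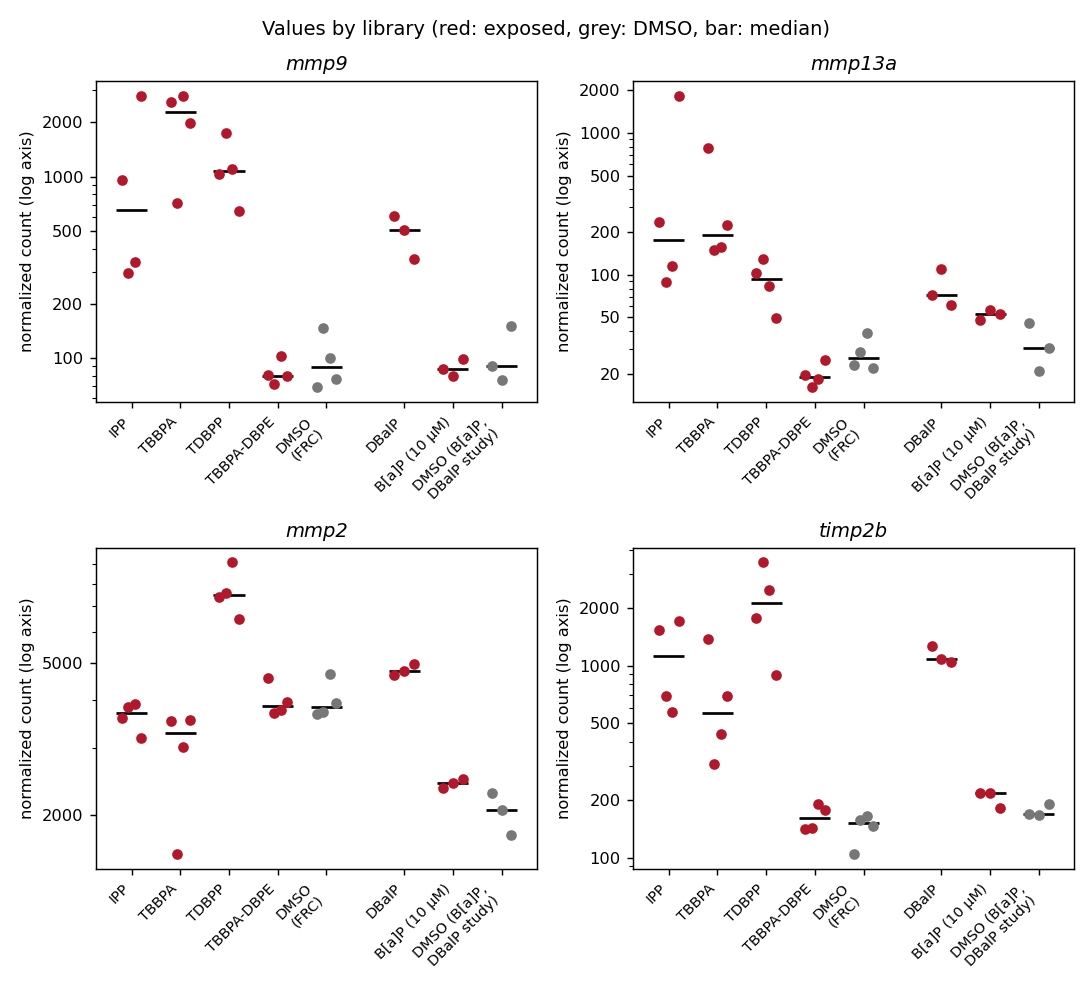
Normalized counts by library on a log axis for mmp9, mmp13a, mmp2 and timp2b in 4 FRC treatments with their DMSO group and in DBalP and B[a]P at 10 µM with theirs; red points are exposed libraries, grey points DMSO libraries and bars medians. mmp9 and timp2b lie above all controls in IPP, TBBPA, TDBPP and DBalP, while mmp2 is highest in TDBPP (6499 to 9117) and, in its study, in DBalP (4641 to 4957). Of all genes, 11.3% in IPP, 4.46% in TBBPA, 17.3% in TDBPP and 18.9% in DBalP had every library above every control.

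In the AHR2 Activators mmp13a was called in TCDD and 7,12-B[a]AQ and lay above the controls in most of the others. In TCDD libraries it had 72.6, 102, 79.6 and 104 normalized counts, against 19.1, 18.0, 28.4 and 39.3 in DMSO (1.78 ± 0.25, limma adjusted p = 0.00655). In 7,12-B[a]AQ it had 69.0, 66.3 and 65.4, against 34.7, 20.3 and 27.2 in DMSO (1.29 ± 0.23, limma adjusted p = 0.0012; all genes 3.72% higher in 7,12-B[a]AQ). The TCDD call held in each of the 8 fits that left out a replicate, and the 7,12-B[a]AQ call in each that removed a library of its study. Groups of that study have at most 3 libraries, so the 2 fits without replicate 4 repeated the main fit there. With 1 fit over all libraries the 7,12-B[a]AQ call was lost (limma adjusted p = 0.265), as was that of mmp9 in TCDD (0.0938). In 9 of the 10 activators every library was above every control, which 7.39% of all gene-by-treatment comparisons of that class also showed. The 23 libraries of BbF, BjF, BkF, DBahP, DBaiP and Retene lay between 70.3 and 154, above the 3 DMSO_A libraries at 36.3, 31.9 and 28.8. For 0.416% of all genes every one of these 23 libraries was above every DMSO_A library.

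None of those 6 comparisons was called on its own, with log2 differences of 1.28 ± 0.50 to 1.74 ± 0.47 and limma adjusted p between 0.054 and 0.35. Each shares its error estimate with all groups of the study with the DMSO_A and DMSO_B controls, which include Fluoranthene (140, 46.3, 48.4 and 404) and 4h-CPdefP (30.0, 15.6, 44.5 and 210). Leaving out replicate 4 of every treatment removed the highest library of both, and mmp13a was then called in BjF, BkF, DBahP, DBaiP and Retene (adjusted p from 0.00511 to 0.0348). Fitted with DMSO_A alone, an alternative chosen after seeing the data, all 6 were called (limma adjusted p from 8.9e-05 to 0.0122). Contrasts also chosen after the values were seen gave a mean of the 6 activators over DMSO_A of 1.55 ± 0.38 (limma adjusted p = 0.0239, all genes 0.522% higher) and over the 3 other treatments sharing DMSO_A of 0.80 ± 0.22 (adjusted p = 0.0373, all genes 1.20% higher). DMSO_A was itself low among controls: the 4 DMSO_B libraries of the same study had 50.8, 51.9, 42.6 and 59.1.

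B[a]P gave the smallest differences, and only its 1 µM dose overlapped the controls. At 1 µM mmp13a had 32.7, 40.8 and 35.0 normalized counts and at 10 µM 48.3, 56.1 and 52.5, against 45.5, 21.1 and 30.3 in DMSO (0.22 ± 0.29 and 0.74 ± 0.29, neither called). mmp9 in the 6 activators of the DMSO_A set was 86.0 to 170, also above the 3 DMSO_A libraries, as for 0.416% of all genes. The DMSO_B libraries of the same study, at 73.2 to 98.6, overlapped that range. None of the 6 comparisons was called, and the mean of the 6 differed from DMSO_A by 0.56 ± 0.42 (limma adjusted p = 0.60). From the 3 other treatments sharing DMSO_A that mean differed by -0.12 ± 0.25 (limma adjusted p = 0.92).

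**Figure D3:**
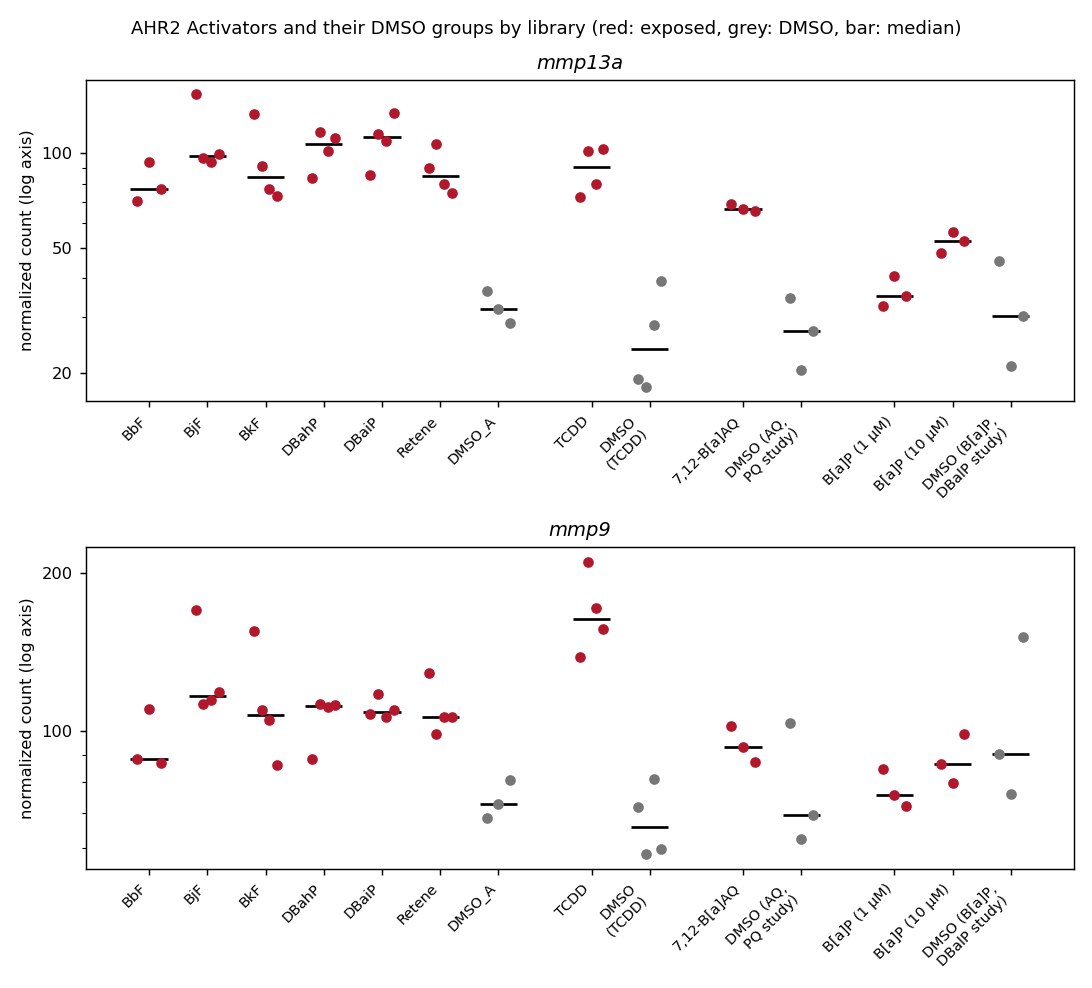
Normalized counts of mmp13a and mmp9 by library on a log axis in the 10 AHR2 Activators, each set left of its DMSO group; red points are exposed libraries, grey points DMSO libraries and bars medians. The 23 mmp13a libraries of the 6 treatments sharing DMSO_A lie at 70.3 to 154, above DMSO_A at 28.8 to 36.3, whereas B[a]P at 1 µM lies within its controls.

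mmp2, the gelatinase A gene and the most highly counted member, changed by smaller factors and in fewer treatments. DBalP libraries had 4641, 4748 and 4957 normalized counts, against 2291, 2065 and 1779 in DMSO. TDBPP libraries had 7413, 7600, 9117 and 6499, against 3672, 3721, 4667 and 3920. The log2 fold changes were 1.23 ± 0.09 (limma adjusted p = 3.91e-07) and 0.93 ± 0.15 (adjusted p = 1.48e-05), and both calls held under all alternatives that could be fitted. IPP, where mmp9 and timp2b rose, gave 3585, 3828, 3911 and 3178 for mmp2, which overlapped the controls (log2 difference -0.14 ± 0.15). In TBBPA mmp2 fell by 0.52 ± 0.15 (limma adjusted p = 0.0284), with libraries of 3526, 1585, 3018 and 3540, but without replicate 2 of the treatments the value was -0.25 (adjusted p = 0.183). That same TBBPA library, replicate 2, was also the lowest of its group for mmp9 (720), mmp13a (149), mmp14a (484), mmp14b (685), timp2a (205) and timp2b (309). For mmp15b it was the highest (307).

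The membrane-type genes mmp14a and mmp14b, whose mammalian counterpart activates pro-MMP2 at the cell surface, changed little. mmp14a was called in none of 33 treatments by limma, and 2 had an unadjusted p under 0.05. B[a]P at 10 µM was called by voom (adjusted p = 0.0293) and by limma with each entry as its own replicate (0.00175), without control replicate 2 (0.04995) and without control replicate 3 (0.0385). Its largest differences were 0.31 ± 0.08 in B[a]P at 10 µM, with 1276, 1205 and 1261 normalized counts against 980, 1076 and 961 in DMSO (limma adjusted p = 0.083), and 0.31 ± 0.09 in TCDD, with 1132, 1377, 1160 and 1270 against 1014, 911, 969 and 1087 (adjusted p = 0.12). In both the exposed libraries lay above all controls, as did those of 8.98% of all genes in B[a]P at 10 µM and 4.18% in TCDD. mmp14b was called once, in DBalP, with 478, 369 and 417 against 374, 309 and 277 in DMSO (0.40 ± 0.14, limma adjusted p = 0.0408). The groups overlapped, and the call was lost in 5 of the 8 fits that left out a replicate (highest limma adjusted p 0.236). The groups of that study have 3 libraries, so the 2 fits without replicate 4 repeated the main fit there. mmp14b ran at 276 to 478 in the libraries read at 50 bp and at 537 to 1271 in those read at 100 or 150 bp. Read length and study cannot be told apart, so levels of this gene were compared within studies only.

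mmp15b, a further membrane-type gene, was higher in all 10 FRC treatments and was called in 6: BDE-47, TBBPA-DBPE, TiBP, IPP, TDBPP and TCEP. In 7 of the 10 every library was above every control, against 9.44% of all gene-by-treatment comparisons with FRCs. In TiBP it had 329, 450, 349 and 307 normalized counts, against 78.1, 110, 74.3 and 104 in DMSO. The log2 fold change was 1.96 ± 0.37 (limma adjusted p = 0.000185, all genes 10.9% higher in TiBP). In TDBPP it had 257, 350, 252 and 271 (1.62 ± 0.37, adjusted p = 0.00105) and in BDE-47 349, 299, 292 and 272 (1.73 ± 0.37, adjusted p = 0.00664, all genes 2.12% higher). TBBPA-DBPE gave 1.51 ± 0.37 (adjusted p = 0.00786, all genes 6.72% higher), TCEP 1.44 ± 0.37 (adjusted p = 0.0114, all genes 4.76% higher) and IPP 1.31 ± 0.37 (adjusted p = 0.0128). Leaving out a replicate ended the call for BDE-47 (without treatment replicate 4), IPP (without treatment replicate 1 or 3) and TCEP (without treatment replicate 1, 3 or 4, or control replicate 1), with adjusted p from 0.0527 to 0.103.

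The FRC study's DMSO libraries, at 74.3 to 110, were low against the other DMSO groups, where mmp15b had means of 171 to 389. Some exposed libraries sat at the same low level: TBBPA replicates 3 and 4 (74.4 and 85.2), TCEP replicate 2 (83.6), TPP replicate 1 (98.1) and, in another study, Acenaphthene replicate 4 (72.0). In the TCDD study both groups spread over a wide range, with 497, 88.4, 307 and 392 in TCDD against 147, 330, 136 and 68.4 in DMSO (log2 difference 0.88 ± 0.52, not called). kank2, a gene not known as part of the MMP system, was picked because its 33 log2 fold changes were most like those of mmp15b. Across libraries mmp15b followed kank2 with Pearson's r of 0.96 over 43 FRC libraries and 0.98 over 8 TCDD libraries. Over 70 libraries of the study with the DMSO_A and DMSO_B controls r was 0.90. In the 2 smaller hydrocarbon studies it was 0.90 over 11 and 0.64 over 12 libraries. These values are descriptions only, since kank2 was picked from these same data and libraries share runs and treatments. The r of mmp15b with log2 reads per library was 0.05 in the FRC study, -0.11 in that with DMSO_A and DMSO_B, and -0.32 in the TCDD study. The part of this shared variation between libraries in the FRC result was not tested. In 9,10-PQ mmp15b had 519, 415 and 478, against 380, 318 and 380 in DMSO (0.39 ± 0.11, limma adjusted p = 0.0400), a call lost without treatment replicate 1 (adjusted p = 0.266) or without control replicate 1, 2 or 3 (0.0658 to 0.177). With the lane as a factor its log2 difference was 0.18 (adjusted p = 0.74), and with the replicate number as a block its adjusted p was 0.194.

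**Figure D4:**
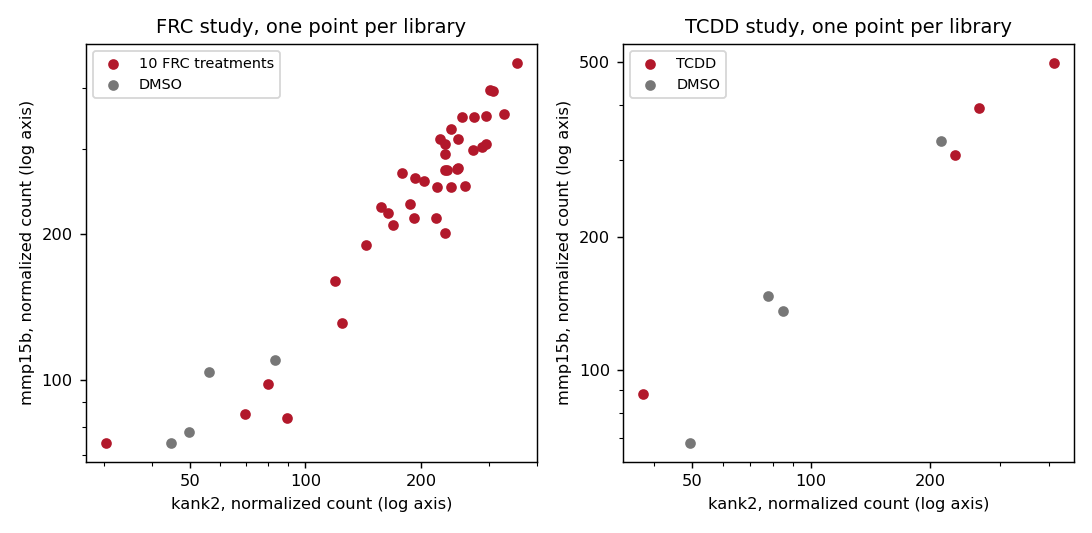
mmp15b against kank2, both as normalized counts on log axes, with 1 point per library; red points are exposed and grey points DMSO libraries of the FRC study (left) and the TCDD study (right). In the FRC study 4 exposed libraries (mmp15b 74.4 to 98.1) sit at the low end with the DMSO libraries (74.3 to 110), and in the TCDD study both groups spread along the same line.

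Of the 2 inhibitor genes, timp2b rose in 5 treatments and timp2a was called once, lower. timp2b had 1776, 3457, 2469 and 894 normalized counts in TDBPP, 1537, 699, 574 and 1713 in IPP, and 1372, 309, 438 and 698 in TBBPA, against 104, 158, 165 and 146 in DMSO. The lowest of these exposed libraries was above the highest control, to be read beside the shares of all genes given for mmp9. The log2 fold changes were 3.76 ± 0.34 in TDBPP (13.5-fold, limma adjusted p = 2.77e-10), 2.84 ± 0.34 in IPP (7.15-fold, adjusted p = 9.28e-08) and 2.08 ± 0.34 in TBBPA (4.23-fold, adjusted p = 4.8e-05). DBalP libraries had 1266, 1079 and 1046, against 169, 167 and 190 in DMSO (2.68 ± 0.12, 6.41-fold, limma adjusted p = 7.57e-09). These 4 calls held under all alternatives that could be fitted, which for DBalP leave out the lane factor. 9,10-PQ libraries had 376, 201 and 337, against 157, 150 and 167 (0.90 ± 0.18, limma adjusted p = 0.00403), and the call was lost with the lane as a factor (adjusted p = 0.0842).

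Group means were highest in TBBPA for mmp9 and in TDBPP for timp2b. timp2a was called only in TBBPA, lower, with 382, 205, 297 and 313 normalized counts against 385, 425, 386 and 452 in DMSO (-0.49 ± 0.16, limma adjusted p = 0.0432). That call was lost in 7 of the 8 fits that left out a replicate, and without replicate 2 of the treatments the value was -0.32 (adjusted p = 0.11). TPP, TCEP and BEZO libraries were also all above their controls for timp2b without a call. TPP had 182, 290, 180 and 249 (0.64 ± 0.34, limma adjusted p = 0.29). Of all genes, 5.02% in TPP, 4.82% in TCEP and 18.8% in BEZO, which has 2 libraries, lay above the controls in this way.

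A chosen set of 6 pairs of related compounds at equal doses was compared directly within a study. These are not all the pairs of equal dose. TBBPA-DBPE is the dibromopropyl ether of TBBPA, and both were given at 4 µM. mmp9 was 2589, 720, 2803 and 1974 in TBBPA, against 80.6, 72.3, 103 and 79.4 in TBBPA-DBPE, a log2 difference of 4.41 (95% interval 3.56 to 5.26, limma adjusted p = 2.44e-09). mmp13a differed by 3.63 (2.53 to 4.73), timp2b by 1.89 (1.21 to 2.56), timp2a by -0.69 (-1.01 to -0.38) and mmp2 by -0.51 (-0.82 to -0.21), all called, so 5 of 8 members differed, beside 25.1% of all genes. For mmp14b the difference was -0.13 (-0.41 to 0.15), not called.

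DBalP and B[a]P, both at 10 µM, differ in their fused ring systems. DBalP exceeded B[a]P for mmp9 by 2.43 (1.92 to 2.94), for timp2b by 2.45 (2.20 to 2.71), for mmp2 by 0.98 (0.79 to 1.17) and for mmp14b by 0.47 (0.18 to 0.76), and differed for mmp14a by -0.25 (-0.42 to -0.08). Of the members 5 of 8 were called, beside 20.7% of all genes. mmp13a differed by 0.58 with an interval of -0.04 to 1.20 (limma adjusted p = 0.19). DBalP ran in lane 4 and B[a]P at 10 µM in lane 3, so lane and compound cannot be told apart in this pair. B[a]P at 1 µM, also in lane 4, had 197, 187 and 208 for timp2b and 2078, 1981 and 2043 for mmp2. The part of the lane was not tested.

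No member was called in TCPP minus TCEP at 85 µM (all genes 0.448%), Phenanthrene minus Anthracene (0.284%), 9-MA minus Anthracene (4.17%) or 1,5-DMN minus 2-MN (0.00%), the last 3 at 50 µM. The intervals were wide for the inducible genes: mmp9 differed by 0.23 (-0.69 to 1.16) between TCPP and TCEP and by -0.57 (-1.55 to 0.40) between Phenanthrene and Anthracene. timp2a in TCPP minus TCEP was -0.50 (-0.84 to -0.16), which did not pass adjustment (limma adjusted p = 0.16), nor did mmp13a in Phenanthrene minus Anthracene at -0.89 (-1.75 to -0.02, adjusted p = 0.37). Phenanthrene was of the DMSO_A set and Anthracene of the DMSO_B set. The mmp13a controls were at 28.8 to 36.3 in DMSO_A and 42.6 to 59.1 in DMSO_B, so control set and compound cannot be told apart in this pair. Of the 32 values in these 4 pairs, only these 2 had an unadjusted p under 0.05. These intervals do not show that the paired compounds acted alike.

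A limma F test asked whether the treatments of each control set differed among themselves, whatever the controls were. In the FRC set 5 of 8 members differed (36.7% of all genes): mmp9 (adjusted p = 4.63e-13), timp2b (1.75e-12), mmp13a (1.06e-07), mmp2 (1.72e-07) and timp2a (0.000211). mmp15b did not (adjusted p = 0.14). In the DMSO_A set mmp13a (adjusted p = 0.0314) and mmp15b (0.0315) differed (3.71% of all genes) and in the DMSO_B set none did (5.20%), by limma at an adjusted p under 0.05; mmp9 and timp2b had unadjusted p of 0.0241 and 0.0475 there. In the set of B[a]P and DBalP all but mmp15b and timp2a differed (21.7%), and in that of 7,12-B[a]AQ, 9,10-PQ and BEZO mmp14b, mmp2, mmp13a and mmp9 did (12.1%).

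The genes whose 33 log2 fold changes most resembled each member were found among 18088 named genes with a mean of at least 10. These r values are descriptions, since treatments share controls and a few large responses weigh heavily. For timp2b they were fosl2 (r = 0.97), which encodes an AP-1 subunit, and sbno2b (0.96). For mmp2 they were phlda3 (0.90), known in mammals as a p53 target, and nt5c1bb (0.89). cdkn1a, the p21 gene and also a p53 target, had 0.87 and is named here after its values were seen. phlda3 changed by 2.72 ± 0.19 in DBalP and 2.36 ± 0.22 in TDBPP, the 2 treatments where mmp2 rose, and by 0.14 ± 0.22 in IPP and -0.19 ± 0.22 in TBBPA. Because phlda3 was picked for its likeness to mmp2, this match follows from the choice. The log2 fold change of cdkn1a was 5.26 in DBalP. It was also 1.71 in B[a]P at 10 µM, where mmp2 changed by 0.25 and was not called. Of all genes 28.0% were called in DBalP and 25.5% in TDBPP, in either direction. The part of p53 in the mmp2 result was not tested.

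mmp9 was most like LOC101883708 (0.88) and pinx1 (0.87). mmp13a was most like etsrp (0.81), an endothelial transcription factor gene, and nuak2 (0.77), with mmp9 next at 0.77. mmp14a was most like ahr2 (0.75), the gene of the receptor that the AHR2 Activators act on, and tril (0.74). In TCDD ahr2 rose by 0.96 ± 0.09 (limma adjusted p = 0.000248). The values for the rest were pparda (0.84) and gprc5c (0.81) for mmp14b, kank2 (0.99) for mmp15b, followed by a gene with only a clone name (0.99), and flot2a (0.80) and klhl21 (0.80) for timp2a.

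**Figure D5:**
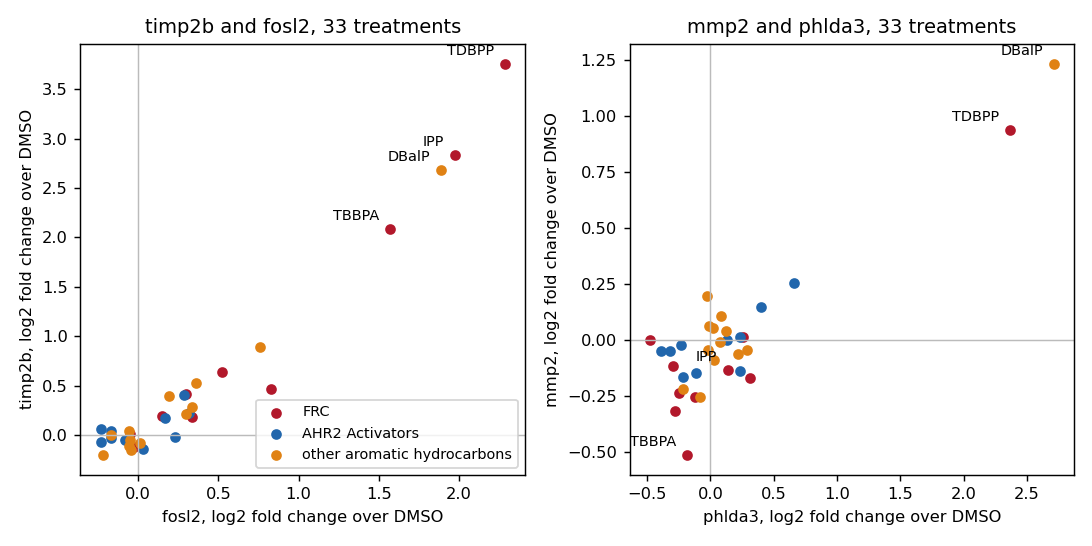
Log2 fold changes over DMSO of timp2b against fosl2 (left) and of mmp2 against phlda3 (right), with 1 point per treatment coloured by class. For timp2b the treatments TDBPP, IPP, DBalP and TBBPA stand apart at the upper right (timp2b 2.08 to 3.76), and for mmp2 only DBalP and TDBPP do (1.23 and 0.93).

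AP-1 factors, immediate-early transcription factors whose binding sites are found in many mammalian MMP promoters, were called higher in these 4 treatments and in some others. Of 12 measured AP-1 genes, 9 were called higher in TDBPP, 8 in IPP, 7 in DBalP and 6 in TBBPA (with 1 lower). Of all genes 13.7%, 8.51%, 13.7% and 3.53% were called higher there. The median log2 fold change of the 12 was 1.63, 1.95, 0.80 and 1.25, beside medians of 0.08, 0.04, 0.03 and 0.03 over all genes. fosab was called in 11 treatments (8 higher, 3 lower) and atf3 in 10, all higher. In TiBP, where neither mmp9 nor timp2b was called, 3 of the 12 were called higher, and their summed level was 3960 to 4754, against 2228 to 2453 in DMSO. In TCDD, where mmp9 and mmp13a rose, the AP-1 median was -0.05, and the values of fosab (0.31 ± 0.27) and atf3 (0.42 ± 0.19) were not called. The part of AP-1 factors in the changes of the members was not tested.

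Of 13 measured inflammatory signal genes, 9 were called higher in IPP (all genes 8.51%), 8 in DBalP (13.7%), 7 in TBBPA (3.53%) and 5 in TDBPP (13.7%), and none lower. socs3b, a feedback inhibitor of cytokine signalling, was called higher in 8 treatments, with 2.21 ± 0.21 in IPP and 2.75 ± 0.22 in DBalP. stat3 was called higher in 8, with 1.17 ± 0.15 in IPP and 1.29 ± 0.08 in DBalP. il1b, named after its values were seen, changed by 3.91 ± 0.61 in TBBPA, 2.59 ± 0.61 in IPP, 1.46 ± 0.42 in DBalP and, not called, 0.83 ± 0.61 in TDBPP.

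In TBBPA, TDBPP, IPP and DBalP, markers of myeloid cells, which make mmp9, changed less than mmp9 did, except irf8 in DBalP. The summed level of 6 neutrophil markers was 2010 to 2604 in TBBPA, 1587 to 2502 in IPP and 1236 to 1784 in TDBPP, against 1498 to 1828 in DMSO. In DBalP it was 545 to 557, against 457 to 732 in DMSO. Of the 6 neutrophil genes 1 was called higher in each of the 4 treatments, srgn, with 1 lower in TDBPP, and mpx, the myeloperoxidase gene that defines these cells, was called in none of them (0.52 ± 0.20 in IPP and 0.03 ± 0.17 in DBalP). The sum of 7 macrophage markers was 850 to 901 in TBBPA, 713 to 1092 in IPP and 805 to 965 in TDBPP, against 645 to 843 in DMSO, and 597 to 780 in DBalP against 418 to 534 in DMSO. mpeg1.2 was called higher in all 4, and marco (1.58 ± 0.34) and irf8 (2.37 ± 0.78) in DBalP, where mmp9 changed by 2.23. In 9,10-PQ, where mmp9 changed by 0.90, mpx (0.47 ± 0.12), lyz (1.05 ± 0.19), mpeg1.2 (0.86 ± 0.23) and marco (0.92 ± 0.23) were called higher. The other markers of both lists were not called there. In TCDD, where mmp9 changed by 1.30, mpx (-0.48 ± 0.12) and lyz (-1.52 ± 0.41) were not called. No marker of either list was at 0 throughout a group. In whole embryos more cells of a type and more RNA per cell cannot be told apart, and the part of myeloid cells in the mmp9 result was not tested.

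Calls of other MMP genes went in both directions. Of 16 measured, 1 rose and 3 fell in IPP (all genes 8.51% and 5.97%), and 1 and 2 in TBBPA (3.53% and 4.65%). In TDBPP 2 rose and 3 fell (13.7% and 11.8%), and in DBalP 3 rose and 1 fell (13.7% and 14.3%). mmp24 was called in 10 treatments (8 higher, 2 lower): 1.85 ± 0.40 in IPP and 1.33 ± 0.40 in TDBPP, but -0.82 ± 0.13 in DBalP. mmp23ba was called in 6, all lower, with -1.11 ± 0.17 in IPP. mmp13b, a second collagenase gene named after its values were seen, changed by 4.39 ± 0.63 in TBBPA (limma adjusted p = 7.96e-06), 2.82 ± 0.57 in DBalP (adjusted p = 0.00198) and 0.26 ± 0.63 in IPP (adjusted p = 0.83), where mmp13a changed by 3.19.

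Among other inhibitor genes timp4.1, a further TIMP gene, was called in 1 treatment, 9,10-PQ (0.90 ± 0.15). Of 10 measured proteases that can process proenzymes, 2 rose in IPP (all genes 8.51%) and 2 in TDBPP (13.7%). In TBBPA 1 rose (3.53%) and in DBalP 3 did (13.7%). tmprss13a, a membrane serine protease gene, was called higher in 9 treatments, with 1.20 ± 0.28 in TBBPA and 1.12 ± 0.30 in DBalP, and st14b in 3.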

How the data were processed

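The authors aligned the reads with STAR to GRCz11, counted reads per gene with HTSeq (versions not given in the sources used here) and normalized with DESeq2; genes at 0 in many samples were removed before deposit. The values deposited are on a log2 scale, and the lowest value equals 0 reads. Reading that scale as a variance-stabilizing transform gave normalized counts in which 100% of values came out as whole reads (within 0.05 of a read). Of 170 entries, 47 shared a lane and index with another and differed by counting noise alone, so they were averaged, leaving 144 libraries. limma 3.58.1 (R 4.3.3) was fitted with a mean-variance trend on log2(normalized count + 1), once per study, each treatment minus its own DMSO group, with adjustment over 21854 genes. The classes and control sets follow the study. How HTSeq treated reads shared by paralogs is not given, so levels of the pairs mmp14a/mmp14b and timp2a/timp2b are uncertain to that extent. The members and gene lists were chosen with earlier results of these data known. Named genes are all members, the 2 genes of each list called in most treatments, and the 2 most like each member; others are marked, and 1 named gene is not reported here. Alternatives changed the pseudocount (5), the filter (mean of 10), the normalization, blocks for replicate number and lane, the samples fitted, and left out each replicate number. Groups with fewer than 4 libraries have no replicate 4, so the fits without replicate 4 removed nothing from them. The fits were tested on simulated data. Intervals cover 95%.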

Additional observations from a re-analysis of the deposited data

Results flagged for a closer look

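In 21 of 224 combinations of a member and a group of 4 libraries, 1 library lay apart from the other 3 by more than Dixon's 95% limit. For normally distributed values chance alone would give about 1 in 20, or 11.2. The members were measured in the same libraries and the limit was applied to counts that were not logged, so 11.2 is only a rough guide. Most were high libraries of the inducible genes. For mmp9 they were Carbazole replicate 1 (1512 normalized counts), 4h-CPdefP replicate 4 (532), BjF replicate 1 (170), 9-MA replicate 2 (150), BDE-47 replicate 2 (133) and 1,5-DMN replicate 4 (115), and DBahP replicate 1 was low (88.4). For mmp13a they were IPP replicate 4 (1829), TBBPA replicate 1 (781), 4h-CPdefP replicate 4 (210), BjF replicate 1 (154) and Phenanthrene replicate 1 (46.8), with 1,5-DMN replicate 3 low (27.9). For timp2b they were Fluoranthene replicate 4 (485), TiBP replicate 1 (332) and 4h-CPdefP replicate 4 (327). In 4h-CPdefP the same library, replicate 4, stood apart for mmp9, mmp13a and timp2b, and in BjF replicate 1 did for mmp9 and mmp13a.

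The steadier genes gave 5 more. For mmp14a IPP replicate 1 was high (923) and TBBPA replicate 2 (484) and TCEP replicate 2 (680) were low, mmp14b was low in Acenaphthene replicate 4 (537), and timp2a was low in Anthracene replicate 3 (267). TCEP replicate 2 and Acenaphthene replicate 4 were also among the libraries with low mmp15b.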

How the results depend on the processing

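Of 29 called comparisons, 16 passed under all 20 alternatives that could be fitted, and no value changed sign. Calls in FRC treatments numbered 18 and ranged from 13 to 20 when 1 replicate number was left out. Calls in AHR2 Activators numbered 3, and were 1 with 1 fit over all libraries, 5 with DMSO_A and DMSO_B pooled, 5 with voom on the recovered reads, 6 with each entry as its own replicate, and 10 with each treatment and its DMSO group fitted alone (chosen after seeing the data); leaving out a replicate gave 3 to 8, the 8 coming without replicate 4 of the treatments. Calls in other aromatic hydrocarbons numbered 8, and were 5 with 1 fit over all libraries, 1 with the sequencing lane as a factor, where DBalP could not be fitted, and 5 to 10 without a replicate. Without replicate 1 of the treatments, the 5 lacked mmp9 and mmp15b in 9,10-PQ and mmp14b in DBalP. F tests called 17 of 40 member-by-set comparisons, 9 of 32 with the lane as a factor and 8 to 20 without a replicate (8, 11 and 9 without treatment replicate 1, 2 and 3). The causes of these shifts were not tested. With the replicate number as a block, calls were 18 in FRC treatments, 4 in AHR2 Activators and 5 in other aromatic hydrocarbons, and 16 F tests were called. Deviations of same-numbered libraries had a median correlation of -0.01 in the FRC study and -0.00 in the study with the DMSO_A and DMSO_B controls. In the TCDD study the median was -0.05, with values from -0.52 to 0.18. These medians cannot show whether same-numbered samples shared a clutch or batch, and the labels do not say. With groups of 2 to 4 libraries, and mmp13a at 26.2 to 51.1 normalized counts in controls, whether its differences in AHR2 Activators were called depended on the samples fitted together.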

Other observations

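Genes of the matrix itself gave more lower than higher calls in TBBPA, TDBPP, IPP and 7,12-B[a]AQ, but not in DBalP or 9,10-PQ. Of 21 measured MMP substrate genes, 8 fell and 1 rose in TBBPA, 8 fell and 4 rose in TDBPP, 7 fell and 2 rose in IPP, 2 fell and 2 rose in DBalP, and 1 fell and 3 rose in 9,10-PQ. All genes were called lower at 4.65% in TBBPA, 11.8% in TDBPP, 5.97% in IPP, 14.3% in DBalP and 3.38% in 9,10-PQ. They were called higher at 3.53%, 13.7%, 8.51%, 13.7% and 2.84%. In 7,12-B[a]AQ, where mmp13a was called higher and mmp9 was not called, all the substrate genes that were called were lower. Among them were acana (-0.76 ± 0.09) and dcn (-0.55 ± 0.09). All genes were lower at 4.24% and higher at 3.72% there. Over all 33 treatments, 65 of 693 comparisons of the substrate genes were called lower and 18 higher, beside 2.22% and 2.46% of all genes. acana, which encodes the cartilage proteoglycan aggrecan, was called lower in 10 treatments (-1.41 ± 0.17 in TDBPP, -1.26 ± 0.17 in IPP), and col1a1b, a type I collagen chain, in 9 (-0.96 ± 0.15 in IPP). fn1b, a fibronectin gene named after its values were seen, rose in TBBPA, TDBPP, IPP and DBalP. It changed, for example, by 2.04 ± 0.24 in TBBPA, 1.87 ± 0.24 in IPP and 2.03 ± 0.11 in DBalP. It was also called higher in 9,10-PQ (1.58 ± 0.11), and it was called lower in 7,12-B[a]AQ (-0.47 ± 0.11). The actinodin genes of the fin fold gave mainly lower calls: and2 was called lower in 14 treatments (-2.39 ± 0.17 in TBBPA, -1.30 ± 0.17 in TDBPP) and and3 in 8. In TCDD, where mmp9 and mmp13a rose, and3 was called higher (0.69 ± 0.13), while and1 and and2 were not called. Summed fin fold markers were 14028 to 15058 in TBBPA against 22822 to 25282 in DMSO.

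Proteases of the ADAM and ADAMTS families, which share the metzincin fold with MMPs, were called higher in 9 of 22 genes in TDBPP (2 lower), 8 in IPP, 8 in DBalP (7 lower) and 5 in TBBPA, to be read beside the same shares of all genes. adamts1 was called in 7 treatments, 6 of them higher (1.35 ± 0.23 in IPP, 1.11 ± 0.23 in TDBPP) and adamts17 in 7 (5 higher, 2 lower), with -0.84 ± 0.14 in DBalP against 0.70 ± 0.18 in IPP. adam8b, named after its values were seen, changed by 2.39 ± 0.33 in TDBPP and 1.83 ± 0.21 in DBalP. The hatching enzyme gene he1.1 was called in 6 treatments, with 1.53 ± 0.27 in TDBPP and -0.48 ± 0.16 in DBalP. Of 5 skin markers, krt8 was called higher in 3 treatments, and tp63 in 4 (1 higher, 3 lower).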
